A study of Homo sapiens with 3 samples.

Results

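The MYC, MAX and MXD network is a set of related transcription factors that pair with one another, and its 10 genes examined here were taken by name: MYC, MYCL1, MAX, MXD1, MXD3, MXD4, MXI1, MNT, MLX and MGA. All 10 have a row among the 17595 genes of the count table. MYCL1 is listed under its current symbol MYCL, and no member lacks a row. The samples are 3 libraries of 1 group, HEK293 cells with no treatment named, a human embryonic kidney line that carries part of an adenovirus genome, grown in medium with serum. Each library counts RNA 5′ ends after lysis of 1000 cells, of which a share equal to 100 cells entered PCR. With 1 group no conditions could be compared, so genes were compared with each other inside every library, and the libraries with one another. The libraries are called 20, 21 and 23 after the index in their column headings, because the labels do not say which replicate a column holds, and nothing says whether they came from separate cultures, so the spread between them may be technical.

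MYC proteins bind DNA as heterodimers with MAX at the E-box, and recruit histone acetyltransferases to activate genes of growth and ribosome production. MXD1, MXI1, MXD3, MXD4 and MNT compete for the same partner MAX and bring the SIN3 corepressor to the same sites, and MGA joins MAX to a variant Polycomb complex. MLX is a MAX-like protein that pairs with MLXIP and MLXIPL, sensors of glucose metabolites, and with some of the MXD proteins. In dividing cells MYC is usually high, and several MXD genes rise when cells leave the cycle.

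The E-box that the network binds, CACGTG, reads the same on both strands. It was searched for in promoters of RefSeq (GRCh38), 250 bases before to 50 after each gene start, and a gene counted as holding it when any of its promoters did. Of the 10 members 9 matched a promoter, MYC having none in that table, and 3 of the 9 held the E-box: MXD4, MNT and MLX. Of the 27305 genes with a promoter listed, 8.77% held it, and of those with at least 10 pooled counts, which were the genes tested, 13.2%. The sites of the 3 members are shown with 12 bases on each side and the E-box in capitals, because they place the binding sequence of the network in its own genes, and 1 site each of ODC1 and LDHA, known MYC targets whose promoters hold more than 1, is shown for comparison. The first base of the E-box lies 238 bases upstream of the start in MXD4, 193 in MNT, 50 in MLX, 29 in ODC1 and 87 in LDHA.
MXD4, chr4:2262330-2262359, minus strand: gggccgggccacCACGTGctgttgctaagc
MNT, chr17:2401236-2401265, minus strand: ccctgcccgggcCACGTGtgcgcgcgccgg
MLX, chr17:42567038-42567067, plus strand: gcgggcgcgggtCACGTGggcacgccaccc
ODC1, chr2:10448024-10448053, minus strand: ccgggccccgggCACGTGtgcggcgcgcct
LDHA, chr11:18394464-18394493, plus strand: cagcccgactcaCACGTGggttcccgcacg

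Levels are given as counts per 1000000 endogenous counts (CPM), with the mean ± SD over 3 libraries. Endogenous totals ran from 1330877 to 1545594 counts, so 1 count equals 0.647 to 0.751 CPM, and spiked control RNAs took 3.49% to 3.85% of all counts. Over the genes kept by the expression filter of edgeR, the common coefficient of variation between libraries beyond counting error was 0.0537. Each counted fragment marks an RNA 5′ end, so CPM were not divided by RNA length, and ratios per length are given where they change the order. Of 12 markers reported for HEK293, 11 had a row and 10 averaged at least 10 CPM, led by VIM at 340 ± 23.4 CPM. PAX2 had 1 count in all and PAX8 has no row. Of 5 markers of fibroblasts and muscle 1 had a row, COL1A1, at no more than 4.53 CPM in any library, and of 3 liver markers 0 had one.

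MYC was the most abundant gene of the network and the steadiest between libraries. It had 253, 232 and 268 counts in libraries 20, 21 and 23, or 171, 174 and 173 CPM (173 ± 1.47 CPM). The coefficient of variation was 0.851%, below the 6.32% that counting error alone would give. MYC stood at rank 1027 of all genes with a count, at percentile 94.2. Its relative MYCL, which encodes L-MYC, had only 3, 1 and 2 counts, a pooled level of 1.38 CPM with a 95% exact Poisson interval of 0.506 to 3.00 CPM. MYC thus exceeded MYCL 125.5-fold in pooled counts, with a 95% exact binomial interval of 57.4 to 343. The third family member, MYCN, has no row. MYCL did not reach the minimum of 10 pooled counts and was not tested, and the other 9 members did.

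MAX, the obligate partner of MYC and a partner of its antagonists, lay well below MYC. It had 68, 60 and 82 counts, or 46.1, 45.1 and 53.1 CPM (48.1 ± 4.34 CPM), at percentile 82.4. No library brought MAX near MYC. Within libraries the log2 ratio of MAX to MYC was -1.90, -1.95 and -1.71, and the fitted ratio was -1.84, so MYC was 3.59-fold higher (edgeR quasi-likelihood test, adjusted p = 9.0e-49).

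MLX, the MAX-like partner, came second. It had 162, 129 and 144 counts, or 110, 96.9 and 93.2 CPM (99.96 ± 8.71 CPM), at percentile 90.1. MLX was lower than MYC in 3 of 3 libraries, by 0.79 on the fitted log2 scale (-0.79, edgeR adjusted p = 6.7e-20), and higher than MAX in 3 of 3, with a log2 ratio of 1.06 (edgeR adjusted p = 3.6e-21). Of its own partners MLXIP, also called MondoA, had 59.6 ± 3.88 CPM and MLXIPL, also called ChREBP, had 5.44 ± 2.64 CPM. MLX exceeded their sum by a log2 ratio of 0.62 ± 0.25 (SD, n = 3 libraries), and MLXIP exceeded MLXIPL 10.8-fold in pooled counts (95% exact binomial interval 7.12 to 17.2). TXNIP and ARRDC4, arrestin-domain genes activated by MLX with MLXIP, had 5.99 ± 1.09 and 5.96 ± 3.07 CPM, and both were called below MYC and below MAX, as were 90.2% and 68.8% of all genes.

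**Figure D1:**
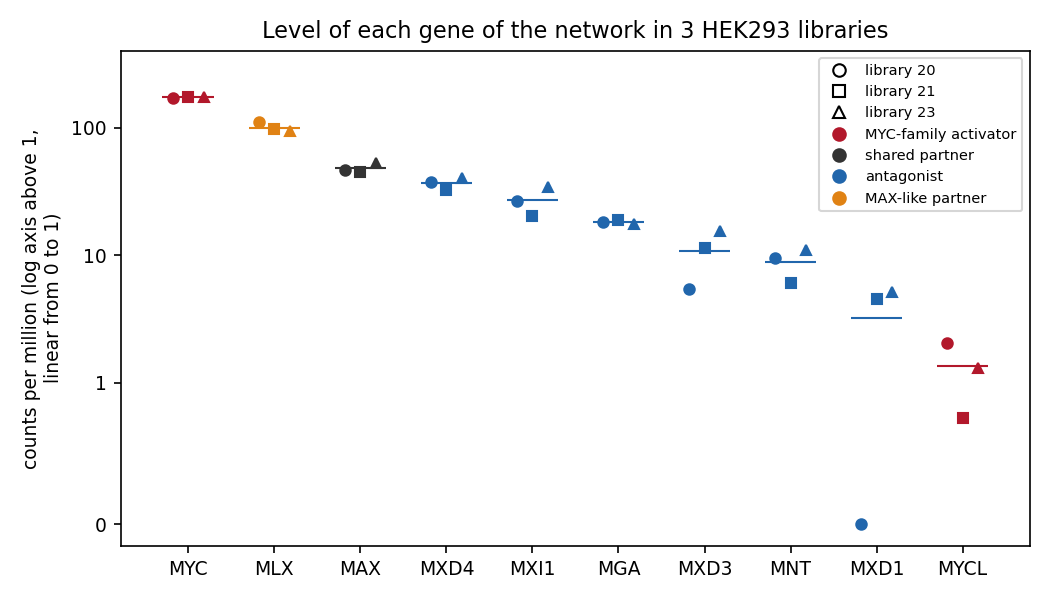
CPM of each of the 10 genes (horizontal axis, in order of the mean) in libraries 20, 21 and 23, on an axis that is logarithmic above 1 and linear from 0 to 1; lines mark means and colours the role. MYC at 173 CPM and MLX at 99.96 CPM stand above MAX at 48.1 CPM, the 6 antagonists lie below MAX, and MXD1 has no count in library 20.

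The antagonists formed a graded series below MAX. MXD4, an antagonist found in many tissues, led with 55, 43 and 62 counts, or 37.3, 32.3 and 40.1 CPM (36.6 ± 3.95 CPM). MXI1, an MXD family member and candidate tumour suppressor, had 39, 27 and 53 counts, or 26.4, 20.3 and 34.3 CPM (27.0 ± 7.02 CPM). The highest library of MXI1 lay above the lowest of MXD4, so these neighbours overlapped, although MXD4 was higher in each library. MGA, a very large protein with both a T-box and a MAX-pairing domain, had 27, 25 and 27 counts, or 18.3, 18.8 and 17.5 CPM (18.2 ± 0.66 CPM). Its libraries were the most alike of the antagonists. The coefficient of variation was 3.66%, below the 19.5% that counting error alone would give. The libraries of MGA did not overlap those of MXI1, but the gap between the nearest libraries is within counting error. These were 27 counts of MXI1 and 25 of MGA, both in library 21. MXI1 was higher than MGA in each library and had 1.51-fold its pooled counts.

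MXD3, an antagonist linked to the S phase of dividing cells, had 8, 15 and 24 counts, or 5.42, 11.3 and 15.5 CPM (10.7 ± 5.07 CPM). MNT, the antagonist thought to set the basal balance with MYC in most cells, had 14, 8 and 17 counts, or 9.49, 6.01 and 11.0 CPM (8.83 ± 2.56 CPM). MXD3 and MNT overlapped, and their order differed between libraries. MXD1, the founding antagonist, which rises in differentiating cells, had 0, 6 and 8 counts, or 0, 4.51 and 5.18 CPM (3.23 ± 2.82 CPM). It was the lowest antagonist, and its libraries lay below every library of MNT, but the gap between the nearest libraries is within counting error. MXD1 in library 23 and MNT in library 21 each had 8 counts and differ in CPM only by the library total. In pooled counts MNT exceeded MXD1 2.79-fold (95% exact binomial interval 1.48 to 5.55), with 14 counts against 0 in library 20. That 0 allows up to 2.03 CPM at 3 counts. MXD1 overlapped MYCL.

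All 6 antagonists were called below MAX, where 68.8% of the 11423 genes tested were called below it. The fitted log2 ratio to MAX was -0.39 for MXD4 (edgeR adjusted p = 0.0036), -0.83 for MXI1 (edgeR adjusted p = 8.4e-09) and -1.41 for MGA (edgeR adjusted p = 1.7e-19). For MXD3, MNT and MXD1 it was -2.16, -2.43 and -3.91, with larger separation. MXD4 was the closest call. It was lower than MAX in 3 of 3 libraries. Over the alternatives on counts its adjusted p ranged from 0.0006 (DESeq2) to 0.045 (edgeR without library 21). Divided by RNA length its log2 ratio to MAX was -0.76 (edgeR adjusted p = 1.3e-08). The members above MAX were MYC and MLX, 2 of 8, where 23.6% of genes were called above MAX.

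Against MYC, all 8 members tested were called below. The share of all genes called below MYC was 90.2%, and 8.28% were called above it, so a place below MYC is that of most genes. The fitted log2 ratio to MYC was -2.24 for MXD4, -2.66 for MXI1, -3.25 for MGA, -4.00 for MXD3, -4.27 for MNT and -5.75 for MXD1. For MXD1 it was -5.16 without library 20. By the fitted ratio over all libraries MYC was 4.71-fold above the nearest antagonist, MXD4, and 9.53-fold above MGA, and it was higher than both in 3 of 3 libraries. The edgeR p-values borrow a common spread from all genes, and they describe these libraries only.

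**Figure D2:**
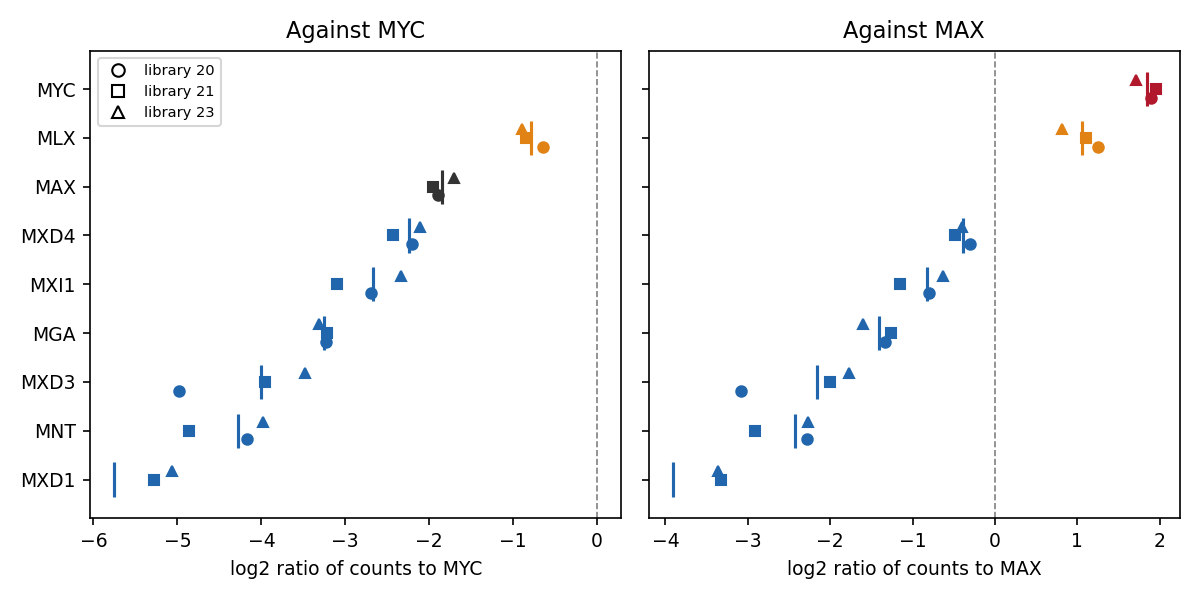
Log2 ratio of the counts of each tested member to those of MYC (left) and of MAX (right), 1 symbol for each library and a vertical line at the fitted ratio; the dashed line at 0 marks equal counts, and MXD1 has no symbol for library 20, where it had 0 counts. The 6 antagonists lie left of 0 in both panels, from MXD4 at -2.24 to MXD1 at -5.75 against MYC.

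Summed over roles, the antagonists together did not reach MYC. The 6 antagonists had 143, 124 and 191 counts, or 96.9, 93.2 and 124 CPM (105 ± 16.6 CPM), against 173 to 175 CPM for MYC with MYCL. The log2 ratio of the antagonist sum to MYC was -0.82, -0.90 and -0.49 in libraries 20, 21 and 23 (-0.74 ± 0.22, SD, n = 3), and MYC had 1.64-fold more pooled counts. Without MXD4 the mean ratio was -1.37. Among the transcripts of MAX partners, MYC and MYCL made up 62.7% ± 3.59 and the antagonists 37.3% ± 3.59. Of all counts of the 10 genes on average MYC took 40.6%, MLX 23.4% and MAX 11.2%. Since members were chosen by name, no p-value was computed for these sums.

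The partners of MAX together outnumbered MAX transcripts in each library. The 8 partner genes summed to 270, 268 and 298 CPM, and the log2 ratio of MAX to this sum was -2.55, -2.57 and -2.49 (-2.54 ± 0.043, SD, n = 3). The pooled counts of the partners were 5.80-fold those of MAX. Without MYC among the partners the log2 ratio was -1.13 ± 0.092, and the 6 antagonists alone had 2.18-fold the pooled counts of MAX (95% exact binomial interval 1.85 to 2.58). These are numbers of RNA 5′ ends and say nothing of protein amounts. In bulk cells a low level in all cells and a higher level in a few cannot be told apart.

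**Figure D3:**
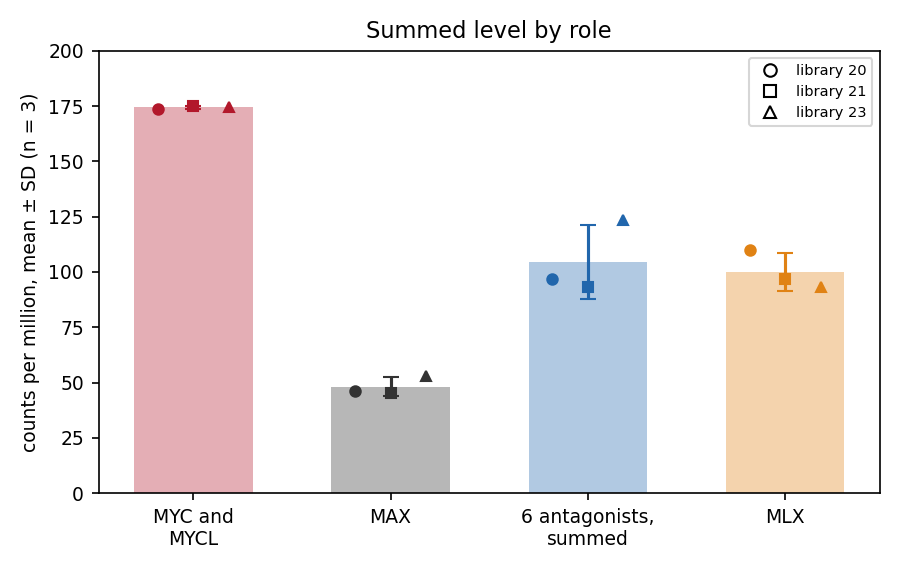
Summed CPM of MYC with MYCL, of MAX, of the 6 antagonists and of MLX; bars are means, error bars the SD over 3 libraries, and symbols the libraries. The antagonist sum (105 CPM) lies between MYC with MYCL (174 CPM) and MAX (48.1 CPM), and library 23 has its highest value.

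Library 23 stood highest for the antagonist sum, at 124 CPM against 96.9 and 93.2 CPM. MXI1, MXD3, MXD4, MNT and MXD1 each had their highest level in library 23, while MGA had 17.5 CPM in library 23 and 18.3 and 18.8 CPM in the others. This was not particular to antagonists, since MAX was also highest in library 23, at 53.1 CPM against 46.1 and 45.1 CPM. MYC, MYCL and MLX were highest in another library. MXD3 gave the lowest unadjusted p of any member, with 8 counts in library 20 and 24 in library 23 (exact binomial test, 2-sided, p = 0.0075, adjusted p = 0.44). MXD1 with 0 and 8 counts in the same libraries had p = 0.0079 (exact binomial test, adjusted p = 0.45), and MXI1 with 27 and 53 counts in libraries 21 and 23 had p = 0.025 (exact binomial test, adjusted p = 0.61). None of the 9 members tested passed the adjusted threshold of 0.05, and 3 of 9 had an unadjusted p under 0.05 in at least 1 pair, against 15.9% of all genes. Over all genes 0.56% were called different between at least 1 pair, 64 genes, and without library 23 the number was 8 and without library 20 it was 34. A chi-square test over the 3 libraries also called 0 members, with 2 at an unadjusted p under 0.05. Of all genes that test called 0.73%, with 9.26% at an unadjusted p under 0.05. Among genes with at least 50 pooled counts, longer RNAs were slightly higher in library 23 against the mean of the other libraries. The median log2 ratio was -0.015 in the shortest of 5 classes of RNA length and 0.10 in the longest. These classes were of nearly equal size over all tested genes of known length. The antagonist sum, which includes MXD1, MXD3 and MNT with fewer than 50 pooled counts, differed by a log2 ratio of 0.38. The part of length in it was not tested.

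The order of the antagonists changed when counts were divided by RNA length. That step was not taken for CPM, because each counted fragment marks an RNA 5′ end. Over the 10921 tested genes with a known RNA length, the longest coding transcript of GENCODE v29, the Spearman correlation of length and CPM was -0.26, a description across genes and not across independent replicates. The median level fell from 51.0 CPM in the shortest class to 14.5 CPM in the longest. MYC, with an RNA of 2366 bases, lay at percentile 90.4 of the genes in its length class, MLX at 81.6, MAX at 76.2 and MXD4 at 76.0. MXD3, MNT and MXD1 lay at percentiles 27.0, 29.4 and 6.66 of theirs. MGA, with the longest RNA of the network at 14439 bases, lay at percentile 58.5. Divided by RNA length, the log2 ratio to MYC was -2.26 for MAX, -3.01 for MXD4, -3.22 for MXI1, -3.94 for MXD3, -5.35 for MNT, -5.86 for MGA and -6.99 for MXD1. On that scale MGA fell below MXD3 and MNT, and MLX at -0.92, MAX and MXD4 kept their places.

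Scaled to the spiked RNAs, whose labelled amount is 20000 molecules per cell, MYC had 90.6 ± 4.59 molecules per cell, MLX 52.3 ± 4.32, MAX 25.2 ± 3.59 and the 6 antagonists together 55.0 ± 11.6 (SD, n = 3). These values take endogenous and spiked RNAs to be captured alike, which was not tested. Some members overlap another gene in GENCODE v29, and how the authors assigned reads in such places is not given in the sources used here. MXD1 overlaps SNRNP27 on its own strand, which had 516 pooled counts, and MXD3 overlaps RAB24 on its own strand, with 108, and PRELID1 on the other, with 3689. MAX overlaps FNTB, with 96 pooled counts, and MLX overlaps PSMC3IP, with 142, both on the other strand. MYC overlaps no annotated gene there.

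The genes nearest to MYC in level and pattern over the 3 libraries, by Euclidean distance of log2(CPM + 0.5), were NDUFV3 (distance 0.045, 171 ± 0.96 CPM), ACAT2 (0.051, 170.2 ± 3.03 CPM), ABT1 (0.053, 172 ± 5.58 CPM), FAM96A (0.064, 169 ± 1.65 CPM) and PDCD6 (0.067, 176 ± 3.51 CPM). Nearest to MAX were SIRT2 (0.017, 48.3 ± 4.71 CPM), ASS1 (0.048, 48.8 ± 3.79 CPM) and DSP (0.054, 48.6 ± 4.49 CPM).

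Genes of the corepressor machinery that the antagonists recruit ran from 12.1 to 406 CPM. All 14 genes of the SIN3, NCOR and HDAC list were tested. Of these 5 were called above MYC and 9 below it, beside 8.28% and 90.2% of all genes. The list median was 38.7 CPM, beside 19.6 CPM over all genes tested. The 5 were the histone-binding proteins RBBP4 (406 ± 18.6 CPM) and RBBP7 (311 ± 8.98 CPM), the complex subunit SAP18 (328 ± 8.64 CPM) and the deacetylases HDAC2 (296 ± 20.0 CPM) and HDAC1 (291 ± 3.68 CPM). The scaffolds that contact the MXD proteins directly were much lower, SIN3A at 27.1 ± 5.69 CPM and SIN3B at 23.1 ± 4.06 CPM. The lowest of the list were ING1 (12.1 ± 0.84 CPM) and ING2 (13.9 ± 1.41 CPM), readers of methylated histone H3.

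Of 11 partners of MGA in its Polycomb complex, 1 was called above MYC and 10 below, near the 8.28% and 90.2% of all genes, with a median of 39.96 CPM. CBX3, a heterochromatin protein with many other roles, led at 652 ± 16.1 CPM, followed by the E2F partner TFDP1 (126 ± 15.9 CPM), WDR5 (79.5 ± 4.64 CPM) and the ubiquitin ligase RNF2 (54.1 ± 5.92 CPM). L3MBTL2 had 40.0 ± 6.64 CPM and PCGF6 36.3 ± 2.19 CPM, and the lowest were the repressor E2F6 at 14.7 ± 4.01 CPM and RING1 at 13.7 ± 3.66 CPM.

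Among 15 coactivators of MYC 3 were called above MYC, 11 below and 1 did not pass the threshold. The shares of all genes were 8.28% above MYC and 90.2% below it. The list median was 28.0 CPM, beside 19.6 CPM over all genes tested. RUVBL1 (258 ± 9.65 CPM), SMARCB1 (196 ± 16.0 CPM) and ACTL6A (189 ± 16.0 CPM) were above, and the ATPase RUVBL2 at 169 ± 9.38 CPM was the one not separated. Without library 20 the number called above MYC was 1. The scaffold TRRAP, which brings acetyltransferases to MYC, had 27.3 ± 6.66 CPM. EP400 (17.4 ± 5.36 CPM) and ZBTB17 (5.08 ± 0.98 CPM), the latter also called MIZ1, through which MYC represses genes, were lowest.

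Regulators of MYC protein and RNA spread widely. Of 17 genes of MYC protein stability 2 were called above MYC, SET (532 ± 37.5 CPM), an inhibitor of the phosphatase that acts on MYC, and the ubiquitin ligase STUB1 (204.5 ± 5.10 CPM), and 15 below, with a median of 27.6 CPM. These counts too are near the 8.28% and 90.2% of all genes. The mitotic kinase AURKA had 126 ± 3.58 CPM and the ligase subunit SKP2 100.5 ± 13.1 CPM, whereas FBXW7, the ligase that recognises phosphorylated MYC, was lowest at 9.43 ± 0.54 CPM, with FBXO32 at 9.64 ± 0.78 CPM. Of 10 regulators of MYC RNA 3 were called above MYC, 6 below and 1 did not pass, beside 8.28% above and 90.2% below of all genes. Their median was 142 CPM, beside 19.6 CPM over all genes tested. CNBP (716 ± 12.6 CPM), HNRNPK (560 ± 31.5 CPM) and PTBP1 (420 ± 33.8 CPM) were above, CTNNB1 at 185 ± 10.4 CPM was not separated, and CTCF (41.6 ± 3.50 CPM) and TCF7L2 (18.4 ± 1.93 CPM) were lowest.

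Genes known to be activated by MYC spanned levels above and below MYC, and genes known to be repressed by it were all below. Of 40 activated genes 39 were tested, 21 were called above MYC, 17 below and 1 did not pass, with a median of 197 CPM, and 30 of the 39 were called above MAX and 6 below it. Over all genes 8.28% were called above MYC and 23.6% above MAX, and the median over all genes tested was 19.6 CPM. The list of activated genes was chosen with earlier results of these data known, so its counts only describe the chosen genes. The most abundant were NPM1 (5077 ± 268 CPM) and PTMA (3513 ± 299 CPM), the metabolic enzyme LDHA (1517 ± 35.9 CPM) and the chaperonin HSPD1 (1408 ± 42.1 CPM). The lowest were BOP1 (7.67 ± 2.16 CPM) and TERT, the telomerase subunit (2.03 ± 1.05 CPM). Of the 9 repressed genes 0 were called above MYC or above MAX and 9 below both, with a median of 14.0 CPM (edgeR). Most genes share that place, 90.2% being called below MYC and 68.8% below MAX, so the count is no result about repressed genes. They ran from CDKN1A, the p21 inhibitor of cell cycle kinases, at 20.8 ± 3.25 CPM, with GADD45A (17.3 ± 3.91 CPM), GADD45B (16.7 ± 4.82 CPM) and KLF6 (14.9 ± 1.31 CPM), down to CDKN1C (6.87 ± 0.84 CPM) and CDKN2B (4.63 ± 0.70 CPM). With 1 group, no level here was compared across amounts of MYC. Of the activated genes 34 matched a promoter and 16 of these held the E-box (47.1%), beside 13.2% of tested genes. Some of these genes are known as MYC targets because of that site, so the count is a description.

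**Figure D4:**
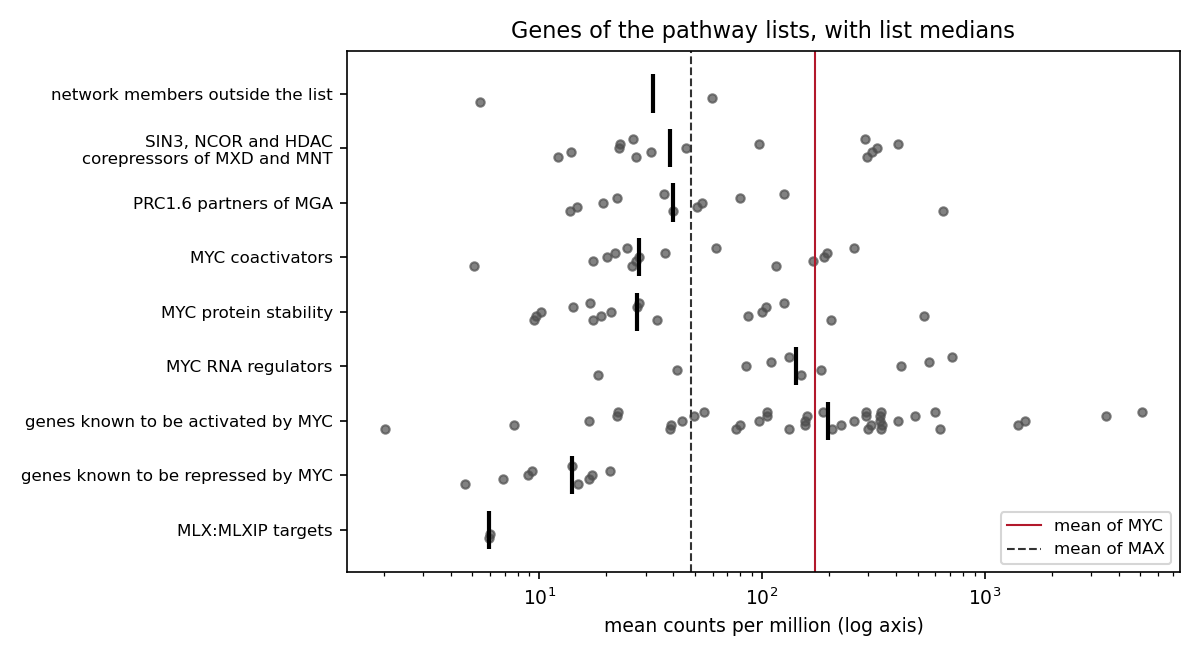
Mean CPM (logarithmic horizontal axis) of each gene of 9 pathway lists, with black bars at the list medians, a solid line at the mean of MYC (173 CPM) and a dashed line at that of MAX (48.1 CPM). The list of activated genes has its median at 197 CPM, right of MYC, and the 9 repressed genes all lie left of MAX.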

How the data were processed

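Values are raw gene counts as deposited by the authors, in 1 table of 3 libraries with 17595 gene and 80 spike rows. The submitters' processing notes name cutadapt 1.2.1, STAR 2.4.0a and hg19 (GRCh37). The tool that counted, its annotation, any use of strand and any collapsing of molecular identifiers were not given in the sources used here. Counts may thus be of reads or of molecules, and intervals cover counting error only.

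Members, lists and tests were chosen with earlier results of these data known. Each gene with at least 10 pooled counts was fitted in edgeR 4.0.16 with glmQLFit, an intercept and the log count of MYC or MAX as offset. The quasi-likelihood F statistic was computed as glmQLFTest does, since that function needs more than 1 coefficient, with Benjamini-Hochberg adjustment over all genes at 0.05. The error of the reference gene enters only through the spread between libraries. Libraries were compared by exact binomial tests over all genes and pairs. Scripts were tested on simulated data. Alternatives were limma 3.58.1, DESeq2 1.42.0 with gene-wise dispersions, pooled binomial tests, other filters and scalings, RNA length, and leaving out each library. The text names all members, the genes nearest to MYC (5) and MAX (3), and of each list the 4 most and 2 least abundant; HDAC1, SIN3A, SIN3B, TRRAP, L3MBTL2, PCGF6 and SKP2 were named after their values were seen. Some items that this rule or the marker lists would name are not reported here. RNA lengths and overlaps came by name from GENCODE v29 (GRCh38), not the authors' build. Python 3.11.15, scipy 1.17.1 and R 4.3.3 were used.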

Additional observations from a re-analysis of the deposited data

How the results depend on the processing

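The direction and call of all 16 single ratios of members to MYC and MAX were the same in 138 of 138 alternatives, with a highest adjusted p of 0.045 (MXD4 over MAX by edgeR without library 21). Genes called below MYC numbered 16477 with no count filter and 6375 at 50 or more pooled counts, against 10305, and those below MAX 14032 and 3932, against 7861. At 50 or more pooled counts 5 members were called below MYC and 3 antagonists below MAX, because MXD1, MXD3 and MNT were no longer tested. The log2 ratio of the antagonist sum to MYC was -1.37 without MXD4 and -1.18 with MXD1, MXI1, MXD3 and MXD4 only, and that of MAX to its partners was -1.13 without MYC, each a sum of fewer genes. Genes differing between libraries numbered 250 with scaling to the spiked RNAs, where the cause was not tested, and 8 to 59 when leaving out each library, against 64. Coactivators called above MYC numbered 1 to 3 when leaving out each library. The leave-one-out values of MLX over MLXIP and MLXIPL were added after seeing the data. Depth limits the lowest members: MYCL, with 6 pooled counts, and MXD1, with 14, carry wide counting error.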
